A study of Mus musculus with 7 samples.

Results

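The enzymes of the tricarboxylic acid (TCA) cycle and of pyruvate dehydrogenase, with the kinases and phosphatases that switch pyruvate dehydrogenase off and on, were followed in the livers of mice carrying a Zfp90 transgene and of wild-type mice. The set was a given list of 31 gene symbols, matched exactly to the array annotation, and 30 of them had a probe among the 22218 features measured. The expression of Sdhd, a membrane anchor of succinate dehydrogenase, was not analysed here. Pdhb was read by 2 probes and each of the other members by 1. The arrays compared 4 wild-type littermates (1 female, 3 males) with 3 Zfp90 transgenic animals (1 female, 2 males), and the animals keep the numbers of their labels. Liver RNA of each animal was hybridised against a common pool made from the livers of 4 wild-type controls of both sexes. The labels give Cy5 for the animal and Cy3 for the pool and also mention dye swaps, but the sources used here do not say how those enter the deposited ratios. Strain, age, diet, and the promoter and structure of the transgene are not given in the sources used here. Every value is a log2 ratio to that pool, or a difference of such ratios where it is called one, so 0 means the level of the pool. Such ratios do not rank genes by abundance and cannot show whether a marker of liver is present, and in whole liver fewer cells of a type and less RNA per cell cannot be told apart.

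In the cycle, acetyl-CoA joins oxaloacetate to form citrate, which is oxidised step by step back to oxaloacetate, giving NADH and FADH2 for the respiratory chain. Pyruvate dehydrogenase makes acetyl-CoA from pyruvate and is inactive when a kinase of the Pdk family has phosphorylated it, until a Pdp phosphatase removes the phosphate. In liver, pyruvate can instead be carboxylated to oxaloacetate by Pcx, the first step of gluconeogenesis, and citrate can leave the mitochondrion to feed lipid synthesis. Pdk4 is known to be induced by fasting and by the nuclear receptor PPAR alpha.

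Some facts of the arrays bear on all values. Zfp90 read 0.34 to 0.58 in the transgenic animals and -0.29 to -0.11 in the 3 wild-type males, but 0.37 on the array labelled wild-type female, so this gene did not separate the genotypes in the females. Leaving out either female leaves the fit of genotype resting on the 5 males, and the values of members described at length are therefore also given in the males. Correlations over all probes ran from -0.50 (wild-type male 4 with the transgenic female) to 0.53 (wild-type males 2 and 4), and 2 other pairs lay below -0.3, both with the wild-type female. The direction was kept as animal over pool, because the labels name the dyes and the Y-linked Kdm5d read -3.22 and -2.54 in the females and 0.14 to 0.66 in the males. Uty, also Y-linked, was lower in both females than in every male but by little (-0.18 and -0.056, against -0.018 to 0.15). Turned signs would change the sign of every difference and no p. Markers of Kupffer cells and macrophages moved with the animals: the mean of 7 measured markers out of 9 was 0.84 in the wild-type female, 0.59 in the transgenic one, -0.76, -0.71 and -0.29 in the wild-type males and 0.29 and 0.33 in the transgenic males. The mean of the 8 hepatocyte markers stayed between -0.19 and 0.10 on the 7 arrays. Single ones varied more, Tat from -0.72 to 0.46 and Serpina1a from -0.78 to 0.29. The part of these markers in the results was not tested.

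No member passed the test for a difference between transgenic and wild-type liver. Succinate dehydrogenase subunit Sdhc (1.26-fold) and mitochondrial malate dehydrogenase Mdh2 (1.19-fold) came nearest among those higher in transgenic animals, and Pdk4 (1.24-fold) among those lower. In contrast, Idh2, the mitochondrial isocitrate dehydrogenase that uses NADP, was 1.87-fold higher in the females than in the males, with nearly equal genotypes. The kinase Pdk4 was 1.93-fold higher in females and missed the threshold (adjusted p = 0.0572).

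Transgenic and wild-type livers were compared with limma in a model of genotype and sex over all 7 arrays, with Benjamini-Hochberg adjustment over all 22218 features and a threshold of 0.05. Of the 30 members 0 were called, where 0% of all features were called, and the smallest adjusted p of a member was 0.677. At an unadjusted p under 0.05 there were 3 members (6.91% of all features), 2 of them higher (3.82%) and 1 lower (3.1%). In 3 members, Sdhc, Mdh2 and Dlat, all transgenic animals exceeded all wild-type ones (3.17% of all features), and in 0 did all lie below them (2.84%). Of the fitted differences 18 were above 0 (48.2% of all features) and 12 below it, with a median of 0.025, against a median of -0.0054 over all features. In size, 17 members lay within 1.1-fold, as did 14349 of the 22218 features. Past 1.2-fold there were 7 members, a size that 13.8% of all features passed. The median size of the difference, whatever its sign, was 0.10 in the members and 0.094 over all features. The 95% interval of the difference stayed within 1.5-fold either way in 23 members and reached past it in the other 7.

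**Figure D1:**
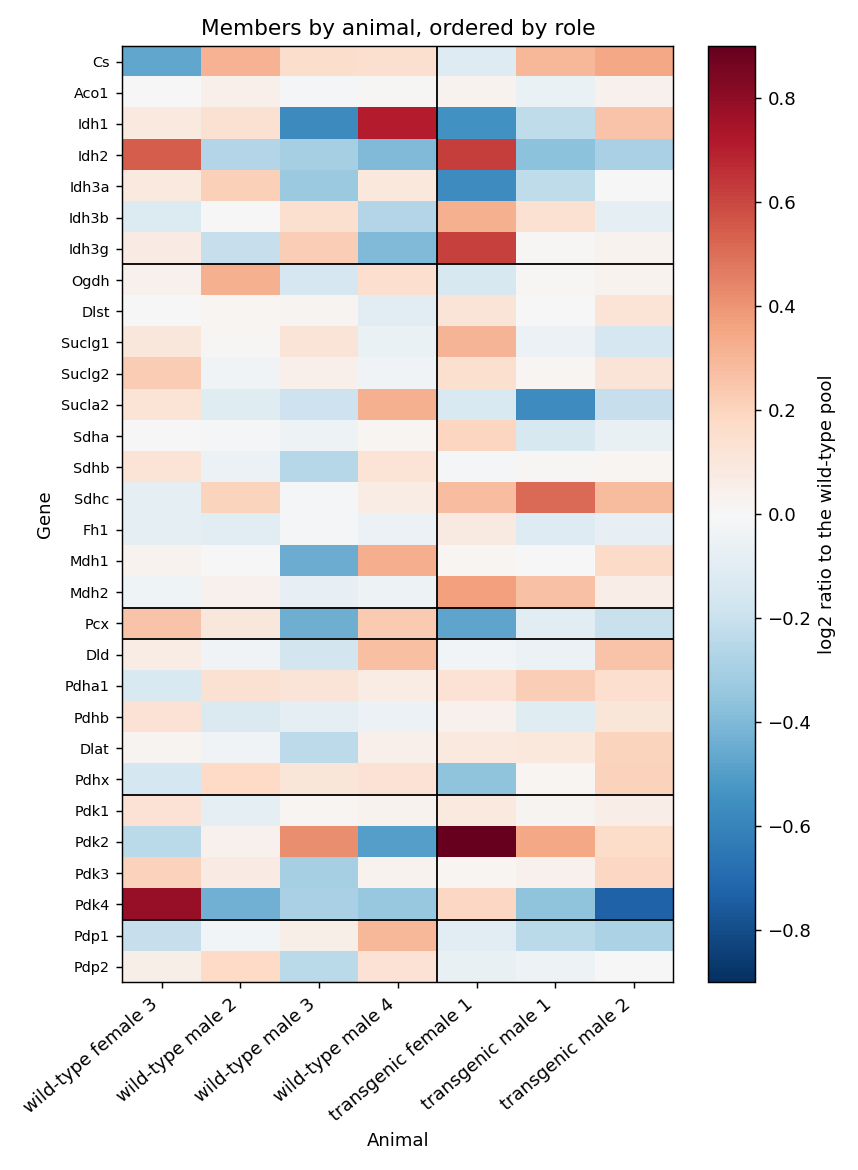
Log2 ratio to the wild-type pool (colour) of the 30 measured members (one per line, ordered by role, with black lines between the roles) in each of the 7 animals, wild type left and transgenic right of the vertical line. Idh2 is red in both females (0.55 and 0.62) and blue in all 5 males, and most other members lie near white.

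**Figure D2:**
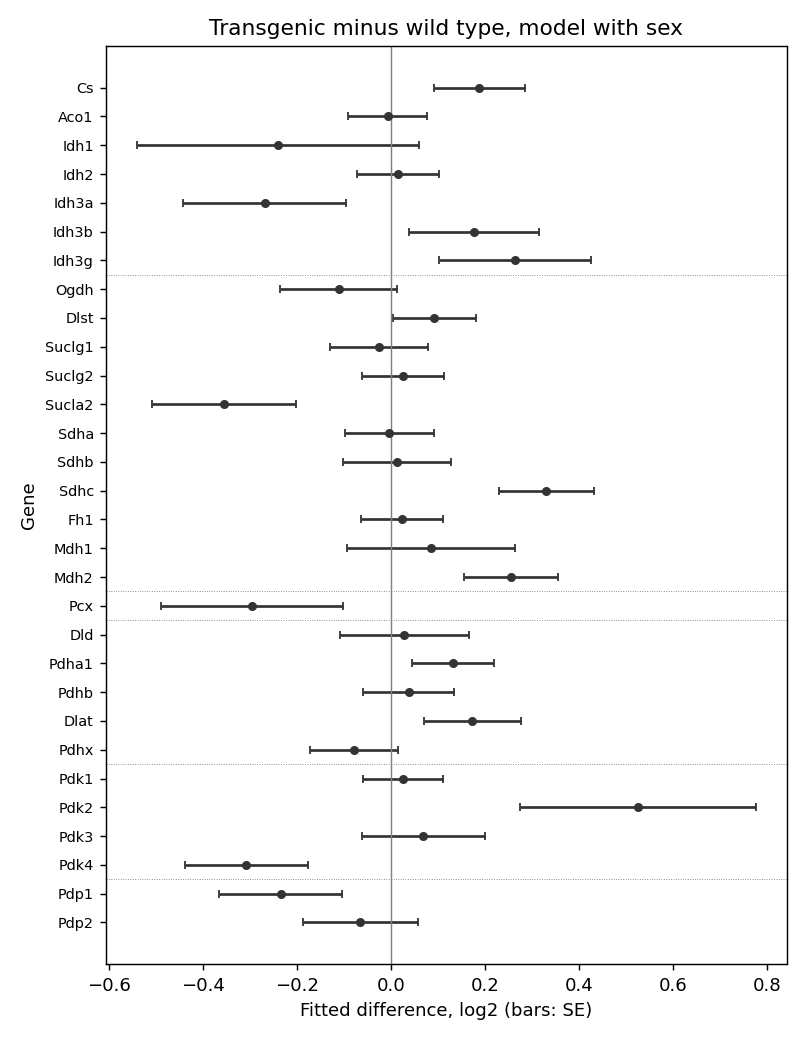
Fitted difference of transgenic minus wild type (log2, horizontal axis) for each member, with bars of 1 standard error (SE) from the model with sex. The points run from -0.36 (Sucla2) to 0.53 (Pdk2), and no member passed the adjusted threshold.

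The first steps of the cycle, from citrate to oxoglutarate, held 7 members, 4 with a difference above 0 and 3 below it. Citrate synthase, Cs, which opens the cycle, had the smallest p of these steps. It read 0.32, 0.16 and 0.14 in wild-type males 2, 3 and 4 and -0.47 in the wild-type female, against 0.30 and 0.35 in transgenic males 1 and 2 and -0.11 in the transgenic female. The genotypes overlapped, and both females lay below all males. The difference between genotypes was 0.19 ± 0.10 SE (adjusted p = 0.746 in limma), and 0.12 ± 0.11 SE in the males alone. The 3 subunits of the NAD-dependent isocitrate dehydrogenase, which work as one enzyme, did not share a sign. The catalytic Idh3a differed by -0.27 ± 0.17 SE, the regulatory Idh3b by 0.18 ± 0.14 and Idh3g by 0.26 ± 0.16, with adjusted p from 0.788 to 0.845 in limma. In the males alone, which is also what leaving out either female gives, these differences were -0.11 ± 0.18 SE for Idh3a, 0.065 ± 0.15 for Idh3b and 0.15 ± 0.19 for Idh3g. All 3 were most extreme in the transgenic female, at -0.57 for Idh3a, 0.32 for Idh3b and 0.62 for Idh3g. Among the wild-type males, Idh3g ran from -0.39 (male 4) to 0.22 (male 3), so animals of one group were further apart than the genotypes. The cytosolic NADP enzyme Idh1, a source of NADPH, had the widest spread among the wild-type males of all members. It read 0.14, -0.57 and 0.71 in wild-type males 2, 3 and 4 and 0.09 in their female, against -0.54 in the transgenic female and -0.23 and 0.26 in the transgenic males. Its difference of -0.24 ± 0.30 SE had a 95% interval from -0.94 to 0.46, which reaches past 1.5-fold downward. It was -0.077 ± 0.36 SE in the males alone, -0.056 without wild-type male 4, -0.15 without transgenic male 1, -0.44 without transgenic male 2 and -0.48 without wild-type male 3, so single animals set its size. The cytosolic aconitase Aco1, which is also an iron-regulated RNA-binding protein, was flat, from -0.06 to 0.05 over the 7 animals. Idh2 did not differ by genotype either (0.015 ± 0.087 SE).

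The steps from oxoglutarate to oxaloacetate held 11 measured members, 7 above and 4 below 0. Sdhc, a membrane subunit of succinate dehydrogenase (complex II), had the smallest genotype p of all members. It read 0.28 in the transgenic female and 0.51 and 0.29 in the transgenic males, against -0.09 in the wild-type female and 0.20, -0.02 and 0.07 in wild-type males 2, 3 and 4. Each transgenic animal lay above all wild-type animals, by a margin of less than the range within either group. The transgenic mean was 0.36 ± 0.13 (SD, n = 3) and the wild-type mean 0.04 ± 0.12 (SD, n = 4), for a fitted difference of 0.33 ± 0.10 SE with an adjusted p of 0.677 in limma. In the males alone the difference was 0.32 ± 0.13 SE (adjusted p = 0.695). The other measured subunits of the complex did not follow it: the flavoprotein Sdha differed by -0.0034 ± 0.095 SE and the iron-sulphur protein Sdhb by 0.013 ± 0.11 SE. Mdh2, which closes the cycle inside the mitochondrion, read 0.37 in the transgenic female and 0.27 and 0.06 in the transgenic males, while the wild-type animals ran from -0.08 to 0.04. The groups did not overlap, but transgenic male 2 (0.06) lay close to wild-type male 2 (0.04). Its difference was 0.26 ± 0.10 SE (adjusted p = 0.72 in limma) and 0.19 ± 0.11 SE in the males alone. Mdh1, the cytosolic partner of Mdh2 in the malate-aspartate shuttle, differed by 0.085 ± 0.18 SE and ran from -0.45 to 0.33 among the wild-type males.

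Succinyl-CoA ligase joins one alpha subunit, Suclg1, to a beta subunit that sets the nucleotide made, ATP with Sucla2 or GTP with Suclg2. Sucla2 had the largest difference below 0 of all members. It read -0.14 in the transgenic female and -0.56 and -0.21 in the transgenic males, against 0.13 in the wild-type female and -0.11, -0.19 and 0.32 in wild-type males 2, 3 and 4. The genotypes overlapped, with wild-type male 3 below the transgenic female. The difference was -0.36 ± 0.15 SE (1.28-fold, adjusted p = 0.722 in limma), -0.39 ± 0.19 SE in the males alone, -0.25 without wild-type male 4 and -0.24 without transgenic male 1. Suclg1 (-0.025 ± 0.10 SE) and Suclg2 (0.026 ± 0.088 SE) differed less than their errors. The subunits of oxoglutarate dehydrogenase had genotype differences of -0.11 ± 0.12 SE for Ogdh, the first enzyme of the complex, and 0.092 ± 0.088 SE for Dlst, its acyltransferase core. Fumarase, Fh1, ran from -0.11 to 0.08 over all animals and differed by 0.023 ± 0.088 SE.

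Pyruvate dehydrogenase itself was followed through 5 members, 4 of them above 0. Dlat, the acyltransferase core of the complex, had the smallest p among them. It read 0.09 in the transgenic female and 0.09 and 0.20 in the transgenic males, against 0.03 in the wild-type female and -0.03, -0.24 and 0.04 in wild-type males 2, 3 and 4. The groups did not overlap, the nearest pair being the transgenic female and wild-type male 4. The difference of 0.17 ± 0.10 SE had an adjusted p of 0.781 in limma and was 0.22 ± 0.12 SE in the males alone and 0.11 without wild-type male 3. The subunits of the decarboxylating enzyme differed by 0.13 ± 0.088 SE (Pdha1, the subunit that the kinases phosphorylate) and 0.038 ± 0.097 SE (Pdhb). The 2 Pdhb probes disagreed from animal to animal, at 0.30 and -0.08 in transgenic male 2, and their differences were 0.078 ± 0.16 SE and -0.0016 ± 0.091 SE. Dld, the lipoamide dehydrogenase shared with the oxoglutarate complex, differed by 0.029 ± 0.14 SE and Pdhx, which anchors Dld to the core, by -0.079 ± 0.094 SE. Pcx, which carboxylates pyruvate, read -0.47 in the transgenic female and -0.10 and -0.20 in the transgenic males. In wild-type animals it read 0.25 in the female and 0.10, -0.44 and 0.23 in males 2, 3 and 4, so wild-type male 3 lay with the transgenic animals. The difference was -0.29 ± 0.19 SE (adjusted p = 0.795 in limma), and was -0.73 between the females and -0.11 between the males.

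The kinases that inactivate pyruvate dehydrogenase went different ways. Pdk4 read -0.36 and -0.73 in the transgenic males, -0.43, -0.29 and -0.34 in wild-type males 2, 3 and 4, 0.19 in the transgenic female and 0.78 in the wild-type one. Within the males the genotypes overlapped, and only transgenic male 2 lay clear of the rest. The fitted difference was -0.31 ± 0.13 SE (adjusted p = 0.722 in limma). It became -0.19 ± 0.14 SE in the males alone, the same value that leaving out either female gives, and -0.24 without transgenic male 2. Pdk2, the kinase most widely found across tissues, had the largest difference above 0 of all members. It read 0.90 in the transgenic female and 0.35 and 0.16 in the transgenic males, against -0.25 in the wild-type female and 0.04, 0.42 and -0.49 in wild-type males 2, 3 and 4. Wild-type male 3 lay above both transgenic males, so the genotypes overlapped. The difference was 0.53 ± 0.25 SE (1.44-fold, adjusted p = 0.739 in limma), with 1.15 between the females and 0.27 ± 0.26 SE in the males alone. Pdk1 (0.026 ± 0.086 SE) and Pdk3 (0.069 ± 0.13 SE) differed less than their errors. Of the phosphatases, which reverse the kinases, Pdp1 read -0.11 in the transgenic female and -0.24 and -0.28 in the transgenic males, against -0.21 in the wild-type female and -0.02, 0.05 and 0.30 in wild-type males 2, 3 and 4. In the males both transgenic animals lay below all wild-type animals, and the difference there was -0.37 ± 0.13 SE (unadjusted p = 0.025, adjusted p = 0.613 in limma). Over all animals it was -0.23 ± 0.13 SE, and -0.15 without wild-type male 4. Pdp2 differed by -0.065 ± 0.12 SE.

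**Figure D3:**
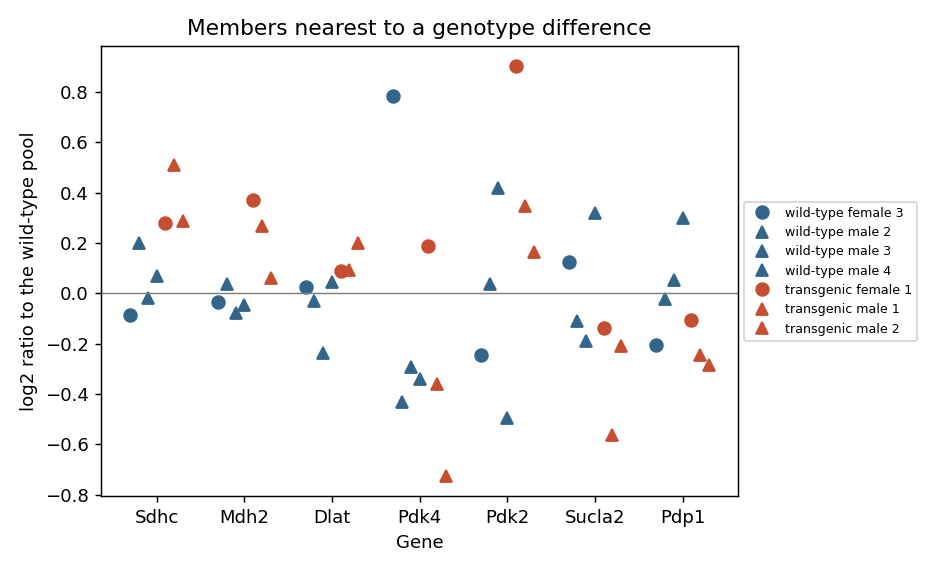
Log2 ratio to the wild-type pool (vertical axis) of 7 members in each animal, wild type in blue and transgenic in red, females as circles and males as triangles. In Sdhc, Mdh2 and Dlat every red point lies above every blue one, while in Pdk4, Pdk2, Sucla2 and Pdp1 the colours overlap.

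Fitted in the 5 males alone, 0 of the 30 members were called in limma (0.0315% of all features), with 2 at an unadjusted p under 0.05, Sdhc and Pdp1 (6.96% of all features). The median difference of the members was 0.060 in the males. In 13 of the 30 members the difference had opposite signs in males and females (50% of all features). The interaction of genotype and sex, a test of that change in size, called 0 members (0.072% of all features), and 0 had an unadjusted p under 0.05 (8.42% of all features). The smallest adjusted p of the interaction was 0.652, for Pdp1.

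The wild-type animals differed among themselves in these genes. The range over the 3 wild-type males was above 0.5 in 7 members, 1.28 for Idh1, 0.92 for Pdk2 and 0.77 for Mdh1. The share of all features with such a range was not counted, so whether this is particular to the members is unknown. Wild-type males 3 and 4 lay on opposite sides of the pool in 20 of 30 members (67.8% of all features), and wild-type male 4 and the transgenic female in 22 of 30 (70.1% of all features), so the members went with the arrays as a whole there. The 2 transgenic males shared their side in all but 7 members (35.7% of all features lay on opposite sides). The median of the members ran from -0.063 in wild-type male 3 to 0.061 in the transgenic female.

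Genes that feed, drain or assemble the cycle were taken from a list of 37 symbols, of which 29 were measured. Of these, 0 were called by genotype in limma (0% of all features), and 4 were higher (3.82%) and 4 lower (3.1%) at an unadjusted p under 0.05, and the median difference was -0.065. Without transgenic male 1 that median was 0.0011. Acly, which splits exported citrate into acetyl-CoA for lipid synthesis, stood out at 1.26 in the transgenic female and 1.26 and 1.21 in the transgenic males, with the wild-type animals between -0.42 and 0.14 and no overlap (1.32 ± 0.13 SE, adjusted p = 0.0947 in limma). Citrate synthase, upstream of it, had the difference of 0.19 given above, and the mitochondrial citrate carrier Slc25a1 one of 0.021 ± 0.083 SE. Malic enzyme Me1, which turns malate into pyruvate and NADPH, differed by 0.41 ± 0.13 SE, the aspartate-glutamate carrier Slc25a12 by 0.63 ± 0.23 and the complex II assembly factor Sdhaf4 by 0.22 ± 0.089. Sdhaf4 read 0.16, 0.18 and 0.23 in the transgenic animals and -0.20 to 0.08 in the wild-type animals, without overlap. The assembly factors Sdhaf2 (-0.081 ± 0.090 SE) and Sdhaf3 (-0.23 ± 0.16 SE) differed below 0, with overlap. All transgenic animals exceeded all wild-type ones in 2 of the 29 genes, Acly and Sdhaf4 (3.17% of all features). They lay below all wild-type ones in 3, Slc25a13, Sirt3 and Lipt2 (2.84%). Lower at an unadjusted p under 0.05 were Pck1, which draws oxaloacetate into gluconeogenesis (-0.69 ± 0.23 SE), the other aspartate-glutamate carrier Slc25a13 (-0.30 ± 0.087), the transhydrogenase Nnt (-0.33 ± 0.14) and the mitochondrial deacetylase Sirt3 (-0.25 ± 0.098). Among the related genes with an unadjusted p under 0.05, the adjusted p in limma ran from 0.677 to 0.721 apart from Acly. No gene of pyruvate entry and exit passed an unadjusted 0.05, with the pyruvate carrier subunit Mpc1 at -0.061 ± 0.11 SE and the lactate dehydrogenase Ldha at -0.22 ± 0.11 SE.

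Sex separated some members more clearly than the transgene did, as it also did over all features, where 78 were called by sex and 0 by genotype. In the same fit 1 of the 30 members was called between females and males (0.351% of all features). At an unadjusted p under 0.05, Idh2 and Pdk4 were higher in females (3.65% of all features) and Cs and Pdhx lower (5.57%). Both females lay above all males in 4 members, Idh2, Pdk4, Suclg2 and Pdk1 (6.04% of all features), and below all males in 2, Cs and Pdhx (6.83%). With 2 females in all, 1 of each genotype, each of these values rests on few animals.

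The bases before the start of the 4 members with an unadjusted p under 0.05 for sex are shown because these had the smallest p for sex among the members, though Idh2 alone passed the adjusted threshold. They are 250 bases upstream of the RefSeq start (GRCm38.p6), 5′ to 3′ on the gene's strand, at chr7:80115351-80115600 (minus strand) for Idh2, chr6:5496279-5496528 (minus) for Pdk4, chr10:128337477-128337726 (plus) for Cs and chr2:103073514-103073763 (minus) for Pdhx. Capitals mark CCAAT and GGGCGG on either strand, which do not overlap each other here.

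Idh2: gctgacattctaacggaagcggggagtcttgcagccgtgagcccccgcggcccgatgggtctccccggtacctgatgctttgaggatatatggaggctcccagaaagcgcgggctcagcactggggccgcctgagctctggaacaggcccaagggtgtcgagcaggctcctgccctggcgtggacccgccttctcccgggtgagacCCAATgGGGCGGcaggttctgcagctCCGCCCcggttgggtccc

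Pdk4: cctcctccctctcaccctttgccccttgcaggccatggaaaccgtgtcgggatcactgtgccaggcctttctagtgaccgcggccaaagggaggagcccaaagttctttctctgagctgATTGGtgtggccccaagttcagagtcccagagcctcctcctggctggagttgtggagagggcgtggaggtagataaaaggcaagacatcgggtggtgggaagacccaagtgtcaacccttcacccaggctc

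Cs: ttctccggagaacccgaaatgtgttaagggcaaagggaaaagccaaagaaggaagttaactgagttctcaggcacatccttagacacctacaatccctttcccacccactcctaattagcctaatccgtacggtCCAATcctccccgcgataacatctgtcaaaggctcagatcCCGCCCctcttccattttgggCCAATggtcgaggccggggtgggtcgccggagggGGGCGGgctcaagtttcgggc

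Pdhx: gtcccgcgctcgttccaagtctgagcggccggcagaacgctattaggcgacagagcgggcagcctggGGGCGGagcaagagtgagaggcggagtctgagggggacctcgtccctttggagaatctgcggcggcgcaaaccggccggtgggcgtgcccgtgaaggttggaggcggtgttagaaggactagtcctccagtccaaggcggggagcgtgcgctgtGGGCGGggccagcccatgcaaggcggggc

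Promoter windows were at hand for 28 of the 31 genes, 37 windows in all. Sdhd, whose expression was not analysed, is among them, and Idh3a, Pdp1 and Sdhc are not. CCAAT occurred in 20 of the 37 windows and in 33.8% of the 32851 windows of all genes, and GGGCGG in 21 and in 32.7%. TTCNNNGAA, the STAT palindrome, searched on both strands, was in 0 of the 37 windows and in 7.02% of all, TATAAA in 0 and 12.4%, the nuclear receptor half-site AGGTCA in 3 and 14% and CACGTG in 6 and 6.02%. Some windows of 1 gene overlap, as in Ogdh. Counted by gene, CCAAT was in 17 of the 28, GGGCGG in 19, AGGTCA in 3 and CACGTG in 4. The share over all genes was not counted, so these counts cannot be set against the percentages by window. The median share of G and C was 52.4% over all windows, and the 4 printed ran from 55.2% (Cs) to 68.4% (Pdhx). Of the 4 printed, Idh2 holds 1 CCAAT and 2 GGGCGG, Cs 2 of each, Pdhx 2 GGGCGG alone and Pdk4 1 CCAAT alone. These are matches of letters and show no binding.

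Idh2 makes NADPH in the mitochondrion from isocitrate. The females read 0.55 (wild type) and 0.62 (transgenic), against -0.26, -0.30 and -0.39 in wild-type males 2, 3 and 4 and -0.37 and -0.29 in transgenic males 1 and 2. Both females were alike, all males were alike, and the gap between the sexes was far wider than the spread within either. The fitted difference was 0.91 ± 0.095 SE, with an adjusted p of 0.0118 in limma, the 37th smallest p among all features. It was 0.86 within the wild-type animals and 0.95 within the transgenic ones. Without the wild-type female, whose Zfp90 value lay with the transgenic animals, it was 0.95 with an adjusted p of 0.10. The size stayed between 0.86 and 0.95 with any animal left out, but the call also ended without wild-type male 2 (0.0556), transgenic male 1 (0.0517) or transgenic male 2 (0.0582). The cytosolic Idh1 (-0.27 ± 0.33 SE) and the NAD enzyme's Idh3a (-0.16 ± 0.19), Idh3b (0.096 ± 0.15) and Idh3g (0.38 ± 0.18) were not called by sex. The mean of the Kupffer cell markers, at 0.84 and 0.59 in the females, was also above all males. So was the mean of the 3 measured stellate cell markers (0.16 and 0.095 in the females, at most 0.058 in the males). Singly, 3 of the 7 measured Kupffer cell markers and 1 of the 3 stellate ones, Lrat, were above all males (6.04% of all features). The mean of the 5 measured adipocyte markers was below all males (-0.53 and -0.17, against at least -0.035). Singly, Car3 alone of these was below all males (6.83% of all features), at -1.88 and -0.88 against -0.54 to 1.03. Fabp4 differed the other way, by 0.27 ± 0.21 SE. Of the 8 hepatocyte markers, Serpina1a and Ttr were below all males in both females (6.83% of all features). The part of these markers in the sex differences was not tested.

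For Pdk4, whose values are given above, females exceeded males by 0.95 ± 0.14 SE (adjusted p = 0.0572 in limma). The gap was 1.14 within the wild-type animals and 0.73 within the transgenic ones, since the wild-type female (0.78) read higher than the transgenic female (0.19). Among the 16468 named genes alone the adjusted p was 0.0491, and it was 0.0456 without the transgenic female and 0.0326 without transgenic male 1, which is under the threshold. It was above the threshold at 0.369 without the wild-type female, 0.172, 0.0608 and 0.139 when wild-type males 2, 3 and 4 were left out in turn, 0.173 without transgenic male 2, 0.165 after quantile normalization, 0.127 without a genotype term, 0.0718 with each array centred on its median and 0.0591 with a robust variance model. Cs was lower in females by 0.56 ± 0.11 SE (1.48-fold) and missed the threshold (adjusted p = 0.113 in limma), at -0.68 within wild-type and -0.44 within transgenic animals. Pdhx read -0.15 in the wild-type and -0.36 in the transgenic female, against 0.18, 0.11 and 0.13 in wild-type males 2, 3 and 4 and 0.02 and 0.21 in the transgenic males. Its difference of -0.38 ± 0.10 SE did not pass either (adjusted p = 0.283 in limma). The sexes did not overlap in Cs or Pdhx, and both lay on the opposite side to Idh2 and Pdk4.

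The remaining members showed little by sex. The median difference over the 30 members was 0.052, against 0.0096 over all features, with 20 above and 10 below 0. Of the genes on the X chromosome, Pdha1 differed by -0.16 ± 0.096 SE and Pdk3 by 0.099 ± 0.14, beside Idh3g, and none was called. Suclg2 (0.16 ± 0.096) and Pdk1 (0.096 ± 0.094) were higher in both females than in every male but by little.

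**Figure D4:**
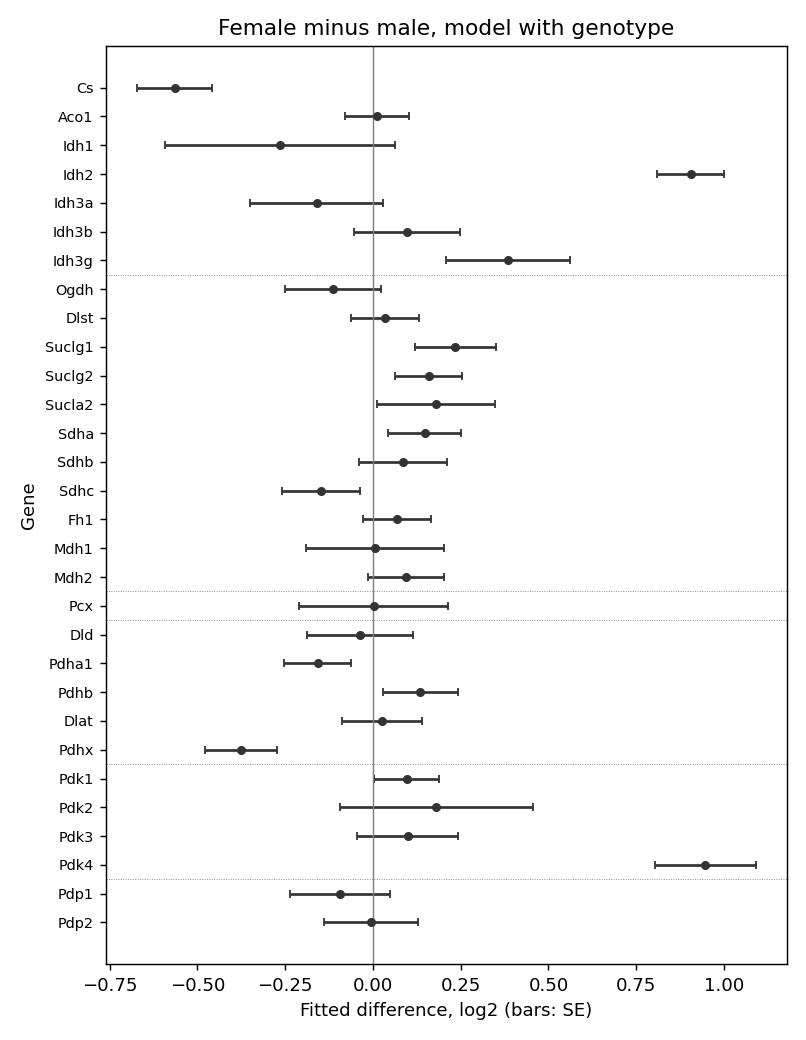
Fitted difference of female minus male (log2, horizontal axis) for each member, with bars of 1 SE from the model with genotype. Idh2 (0.91) and Pdk4 (0.95) lie far to the right, Cs (-0.56) and Pdhx (-0.38) to the left, and Idh2 was the member that passed the threshold.

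**Figure D5:**
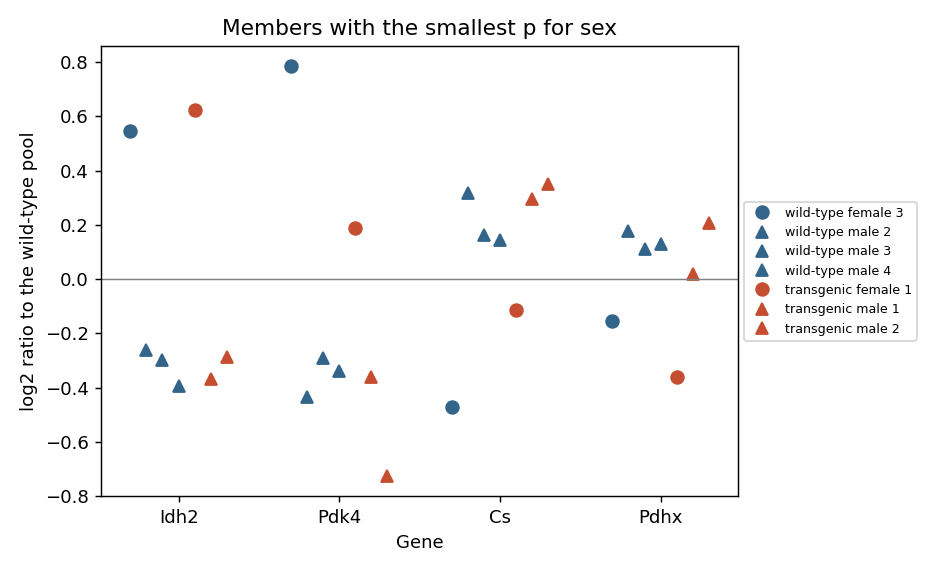
Log2 ratio to the wild-type pool (vertical axis) of the 4 members with an unadjusted p under 0.05 for sex, by animal, wild type in blue and transgenic in red, females as circles and males as triangles. Circles lie above all triangles in Idh2 and Pdk4 and below all triangles in Cs and Pdhx.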

How the data were processed

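RNA of 7 livers, purified on spin columns with DNase per the labels' protocols, was measured on 2-colour arrays. The authors deposited 1 log10 ratio of animal to pool for each of 23574 probes and animal, ending at exactly -2 and 2; dye swaps were used per the labels. How swaps were combined, and the background correction and normalization, are not given in the sources used here; without intensities, signal over background is unknown, and the number of arrays limits precision. Column medians ran from -0.0042 to 0.0093 (log10), and their centring is unknown. The log base was read from that limit and the direction from Kdm5d. Values were multiplied by 3.32 to give log2 ratios and probes of a gene averaged: 17824 probes had 1 symbol, 50 several and 5700 none.

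Differences were fitted with limma 3.58.1 (R 4.3.3), lmFit and eBayes, by genotype and sex, and their interaction in its own model, whose spread comes from the males. The fit was tested on simulated data, where it called 32 of 100 planted 1.5-fold genotype changes and 91 of 100 planted 3-fold ones. Most changes of 1.5-fold were thus missed there. Every member with a probe is named; values in each animal are given at an unadjusted p under 0.05, without overlap between genotypes, or for the smallest p of a role, and Idh1, Pdk2 and Sucla2 were added after their values were seen. Members, lists and tests were chosen with earlier results of these data known. Of the other marker lists, mean ratios over the 7 arrays ran from -0.53 to 0.28 (adipocytes), -0.63 to 0.44 (red blood cells), -0.19 to 0.094 (endothelium), -0.16 to 0.16 (stellate cells), -0.065 to 0.20 (bile duct), -0.13 to 0.12 (striated muscle) and -0.17 to 0.16 (exocrine pancreas).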

Additional observations from a re-analysis of the deposited data

Results flagged for a closer look

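In 2 of the 30 members the wild-type female stood apart from the 3 wild-type males by more than Dixon's 95% limit for 4 animals. This animal read 0.55 for Idh2, where the gap to the next animal was 0.858 of the whole range, and 0.78 for Pdk4, where it was 0.884. Chance sets about 1 group in 20 apart in this way, and 30 members were checked. The 4 animals are 1 female and 3 males, so the check cannot tell an outlying animal from a difference between the sexes. Idh2 and Pdk4 are also the members with the smallest p for sex in limma, from the same values, so this is no separate result. For Idh2 the transgenic female read alike (0.62), while for Pdk4 it read 0.19.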

How the results depend on the processing

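With 3 and 4 animals and no intensities, small changes in single members are beyond these arrays. No paired analysis was possible because the genotypes share 1 replicate number within a sex, number 2 of the males. By genotype, 0 members were called under every alternative run (centring, quantile normalization, no sex term, males alone, robust variance, single probes, named genes alone, each animal left out). Over all features the count of 0 became 7 in the males alone, and ran from 0 to 7 with an animal left out. The median of related genes ran from -0.082 to 0.0011 with an animal left out. By sex, 78 features became 49 after quantile normalization and 36 to 254 with an animal left out, and the 1 member called became 2 among named genes alone and 0 to 2 with an animal left out. The interaction's 16 features became 6 after quantile normalization. Signs turned in these results. With each array centred on its median, the genotype difference became 0.0014 for Aco1 and 0.0049 for Sdha, the sex difference -0.0010 for Aco1, -0.0082 for Mdh1 and -0.012 for Pcx, and the interaction -0.0058 for Dlst. After quantile normalization the sex difference was -0.0040 for Aco1 and -0.0089 for Mdh1, and the interaction -0.011 for Dlst. Without a sex term Sdha was at 0.0089 by genotype, and without a genotype term Pcx was at -0.027 by sex. In the males alone Idh2 was at -0.011 and Fh1 at -0.034, and the first Pdhb probe was at -0.0016. With each animal left out, genotype differences that turned ran from -0.030 to 0.030 (Aco1), -0.083 to 0.11 (Dld), -0.034 to 0.057 (Fh1), -0.011 to 0.049 (Idh2), -0.055 to 0.20 (Mdh1), -0.047 to 0.091 (Pdhb), -0.0038 to 0.055 (Pdk1), -0.023 to 0.18 (Pdk3), -0.086 to 0.050 (Sdha), -0.059 to 0.073 (Sdhb), -0.12 to 0.038 (Suclg1) and -0.020 to 0.072 (Suclg2). Sex differences that turned ran from -0.017 to 0.047 (Aco1), -0.056 to 0.10 (Dlat), -0.13 to 0.042 (Dld), -0.023 to 0.17 (Fh1), -0.45 to 0.099 (Idh3a), -0.081 to 0.30 (Idh3b), -0.10 to 0.094 (Mdh1), -0.0071 to 0.21 (Mdh2), -0.32 to 0.29 (Pcx), -0.23 to 0.65 (Pdk2), -0.092 to 0.27 (Pdk3), -0.32 to 0.16 (Pdp1), -0.074 to 0.032 (Pdp2) and -0.022 to 0.18 (Sdhb). The cause was not tested.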
